A study of Mus musculus with 4 samples.

Results

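Mitochondrial ribosomal proteins were described in RNA sequencing of mouse bulge cells, the part of the hair follicle that holds its stem cells. The members were the protein-coding genes of GENCODE M21 (GRCm38) with a symbol of Mrpl or Mrps followed by a number and at least 10 counts in each of the 4 libraries. The rule found 77 genes among the 55536 of the deposited table, 29 with Mrps symbols (small subunit) and 48 with Mrpl symbols (large subunit). No value of the comparison between genotypes was used to choose them, but earlier results of these data were known.

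The libraries came from 2 mice carrying Cdh5CreERT2 and Alk1 flox/flox, called knockout here, and from 2 littermates without Cre, called control. Cdh5CreERT2 is a tamoxifen-inducible Cre driven by the promoter of Cdh5, an endothelial cadherin, so deletion of Alk1 (Acvrl1, a receptor of the BMP family) was directed at endothelium and not at the bulge cells themselves. All 4 mice were on a C57BL/6 background and all were given intraperitoneal tamoxifen (100 µg per g) at postnatal day 17 and collected at postnatal day 20. Per its title, the series concerns endothelial Alk1 and BMP4 in the timing of hair follicle stem cell activation. The sources used here do not say how the bulge cells were isolated or whether the controls carried the floxed allele. Acvrl1 measured 17.9 and 23.1 CPM in knockouts, against 21.6 and 24.3 CPM in controls (log2 fold change -0.16 ± 0.19, SE), which checks no label, since its deletion was aimed at other cells.

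Mitochondria translate a small set of respiratory chain proteins from their own DNA with their own ribosomes. The RNA of these ribosomes is encoded in mitochondrial DNA, whereas every protein of them is encoded in the nucleus, made in the cytosol and imported. The small subunit reads the mRNA and the large subunit joins the amino acids. In hair follicle stem cells, mitochondrial respiration is known to change with activation and differentiation.

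The libraries held 16326906 to 29130974 counts, and 14259 genes passed a filter on low counts and were tested, all 77 members among them. Bulge markers were abundant: Krt15, a keratin of these cells, measured 36017 and 34786 CPM (counts scaled to effective library size) in knockouts, against 29088 and 34397 CPM in controls. Of 10 bulge markers, 5 had a log2 fold change, knockout over control, above 0 and 5 below, with a median of -0.03. Both knockouts lay above both controls for Krt15 (0.16 ± 0.13, SE) and Krt14 (0.58 ± 0.17), and below both for Lhx2 (-0.24 ± 0.14). Over all tested genes those shares were 21.3% and 23.6%. The summed level of the 10 bulge markers ranged from 68937 to 77792 CPM in knockouts and from 62804 to 72531 CPM in controls. Most of this sum was Krt15 and Krt5, the latter at 31494 and 25488 CPM in knockouts, against 25749 and 30614 CPM in controls. The sum thus says little of the other markers. Markers of other cells were present too. The summed level of 5 interfollicular differentiation keratinocyte genes ranged from 2585 to 6454 CPM in knockouts and from 3005 to 10384 CPM in controls, and was lower in the library numbered 2 of each group. In bulk samples such as these, fewer cells of a type and less RNA per cell cannot be told apart.

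The members were expressed at a moderate level and all were counted in every library. The lowest member count in a library was 96 and the highest 2841, and the median member count ran from 423 to 746 per library. Together they took 0.247% and 0.225% of counts in knockouts 1 and 2, against 0.211% and 0.213% in controls 1 and 2. Per kb of exon, the median level of members was 10.3 CPM per kb, against 4.84 CPM per kb over all tested genes and 389 CPM per kb for cytosolic ribosomal proteins. The range over members ran from 1.38 CPM per kb for Mrps10 to 47.3 CPM per kb for Mrpl24. Exon length here is the union of all annotated exons, so genes with rarely used long exons are set low on this scale.

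Mrpl24, a protein of the large subunit with a bacterial homologue, was the highest per kb, with 54.0 and 50.4 CPM per kb in knockouts, against 42.05 and 42.7 CPM per kb in controls. Mrps21 of the small subunit came next, with 54.7 and 34.7 CPM per kb in knockouts, against 47.5 and 43.4 CPM per kb in controls. The libraries of these neighbours in the order overlapped. Mrpl14 had 41.3 and 39.7 CPM per kb in knockouts, against 28.7 and 32.6 CPM per kb in controls. Mrpl27, whose bacterial homologue lies near the site of peptide bond formation, had 38.1 and 29.9 CPM per kb in knockouts, against 27.3 and 32.6 CPM per kb in controls, so its groups overlapped. Mrpl2, the fifth in the order, had 35.8 and 36.6 CPM per kb in knockouts, against 25.9 and 27.2 CPM per kb in controls.

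At the low end, Mrps10 had 1.33 and 1.49 CPM per kb in knockouts, against 1.45 and 1.25 CPM per kb in controls. Mrpl33 had 1.80 and 1.70 CPM per kb in knockouts, against 2.12 and 1.94 CPM per kb in controls. Mrps35 had 3.15 and 3.29 CPM per kb in knockouts, against 2.82 and 2.93 CPM per kb in controls. All 3 have long unions of exons, from 7326 to 8631 bases. Large subunit members had a median of 12.02 CPM per kb and small subunit members 6.999 CPM per kb.

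**Figure D1:**
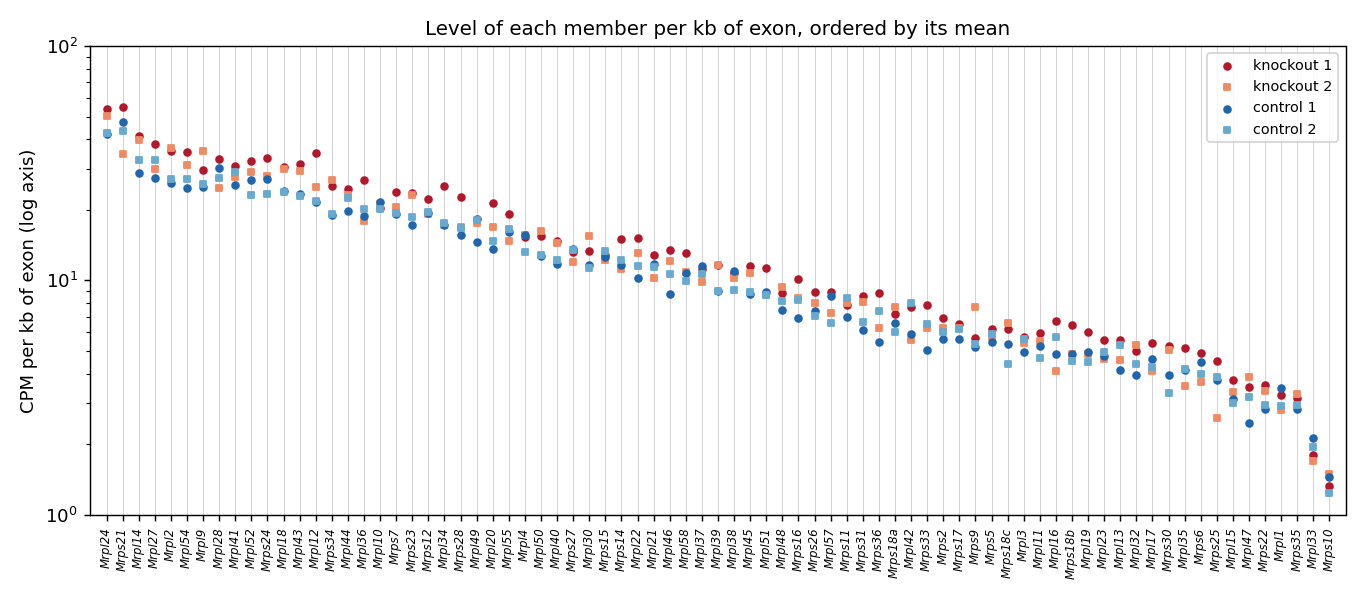
The 77 members along the x axis in order of mean level, with CPM per kb of exon on a log y axis and 1 point per library (red circle and orange square, knockouts 1 and 2; dark and light blue, controls 1 and 2). Mean levels run from 47.3 for Mrpl24 to 1.38 for Mrps10, and the spread between the 4 libraries of a gene is small beside the spread between genes.

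The genes are scattered over the genome. The 77 members lie on 17 chromosomes, and 18 of them have a start site within 1000 bases of the start of a protein-coding gene on the opposite strand, facing away from it. Promoter windows of 300 bases (250 before to 50 after the start, GRCm38.p6, credited to RefSeq) were found by symbol for 68 of the 77 members, 74 windows in all. Their median GC content was 58.5%, against 52.7% over all 32851 windows. An ETS motif, CCGGAAG, the kind of element that GABP binds, was present on either strand in 33.8% of member windows, against 8.86% of all windows and 16.8% of the windows of tested genes. The motif of NRF1, a factor of nuclear genes for mitochondrial proteins, was present in 3 member windows (4.05%, against 0.971% of all windows and 1.94% of the windows of tested genes). Its core GCATGC was in 12.2% of member windows, 7.93% of all windows and 9.49% of the windows of tested genes. The motif of YY1, AAGATGGCG, was in 10.8% of member windows, 1.40% of all windows and 2.82% of the windows of tested genes. That of CREB, TGACGTCA, was in 2.703% of member windows, 1.79% of all windows and 2.98% of the windows of tested genes. The ETS and YY1 motifs share the letters AAG and can overlap there. A match is a description of letters and not a site.

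Members with the ETS motif had a median log2 fold change, knockout over control, of 0.23 (21 of 25 above 0), and members with a window but without the motif had a median of 0.20 (37 of 43 above 0). The windows of 5 members are given to show the elements, on the strand of the gene, 5′ to 3′, in lower case with the motif match in capitals. Mrpl9, Mrpl32 and Mrpl39 are the 3 members with the NRF1 motif. Mrpl51 and Mrpl33 carry the ETS motif, and Mrpl33 is the member of lowest log2 fold change. Mrpl51 has a divergent mitotic gene beside its GENCODE start at 125191801. Its window follows the RefSeq start and begins downstream of that position, so the region shared with the mitotic gene is not in it. The windows of Mrpl39 and Mrpl33 also lie wholly downstream of their GENCODE starts, at 84735742 (minus strand) and 31596935 (plus strand).
Mrpl9 (chr3:94443086-94443385, plus strand): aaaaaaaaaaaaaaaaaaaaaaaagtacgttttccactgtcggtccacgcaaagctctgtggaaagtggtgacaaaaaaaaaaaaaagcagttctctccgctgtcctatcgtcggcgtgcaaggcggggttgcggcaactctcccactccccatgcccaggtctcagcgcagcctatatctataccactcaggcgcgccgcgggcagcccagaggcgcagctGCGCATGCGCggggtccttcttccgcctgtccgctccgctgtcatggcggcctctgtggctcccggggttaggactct
Mrpl32 (chr13:14612988-14613287, minus strand): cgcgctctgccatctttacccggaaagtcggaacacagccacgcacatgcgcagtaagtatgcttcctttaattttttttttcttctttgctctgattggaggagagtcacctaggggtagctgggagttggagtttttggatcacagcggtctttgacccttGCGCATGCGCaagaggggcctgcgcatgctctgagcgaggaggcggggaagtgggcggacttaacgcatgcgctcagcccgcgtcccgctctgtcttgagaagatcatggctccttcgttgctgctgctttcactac
Mrpl39 (chr16:84735195-84735494, minus strand): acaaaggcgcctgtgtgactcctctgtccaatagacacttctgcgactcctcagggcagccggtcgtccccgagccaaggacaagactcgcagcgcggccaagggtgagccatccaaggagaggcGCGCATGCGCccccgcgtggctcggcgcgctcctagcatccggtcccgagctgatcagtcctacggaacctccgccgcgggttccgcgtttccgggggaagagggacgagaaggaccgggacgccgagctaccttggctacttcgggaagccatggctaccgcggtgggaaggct
Mrpl51 (chr6:125191950-125192249, plus strand): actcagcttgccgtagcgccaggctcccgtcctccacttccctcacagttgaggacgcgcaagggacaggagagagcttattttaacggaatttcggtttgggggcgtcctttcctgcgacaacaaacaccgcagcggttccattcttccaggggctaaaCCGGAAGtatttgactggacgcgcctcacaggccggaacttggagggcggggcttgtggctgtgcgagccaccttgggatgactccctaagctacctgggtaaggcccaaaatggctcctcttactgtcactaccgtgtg
Mrpl33 (chr5:31613701-31614000, plus strand): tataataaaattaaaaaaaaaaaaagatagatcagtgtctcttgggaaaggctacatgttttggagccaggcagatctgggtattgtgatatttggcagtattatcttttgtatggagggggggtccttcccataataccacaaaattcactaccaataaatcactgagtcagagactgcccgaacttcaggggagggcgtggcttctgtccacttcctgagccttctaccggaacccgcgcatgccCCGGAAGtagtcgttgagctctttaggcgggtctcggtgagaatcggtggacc
With the first transcribed base by RefSeq counted as 0, the NRF1 match begins at -28 in Mrpl9, -87 in Mrpl32 and -125 in Mrpl39. On the same scale the ETS match begins at -90 in Mrpl51 and at -3 in Mrpl33.

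The comparison of knockout with control asked whether these transcripts differ in bulge cells when Alk1 is deleted in endothelium. No member passed the threshold in either direction (edgeR quasi-likelihood test, Benjamini-Hochberg adjusted p under 0.05; lowest adjusted p over members 0.43). Of all tested genes, 0.00701% passed as higher and 0% as lower. At an unadjusted p under 0.05, 14 of 77 members were higher and 0 lower in that test, against 4.8% and 5.94% of all tested genes. In the 3 shortest deciles of exon length, which held 43 of the 77 members, 6.73% to 9.75% of genes were higher at that p. The count of 14 was 5 after removal of a length and GC trend. Fits that left out a library kept 1 library in a group, so no count at this p is given for them. DESeq2 and limma-voom also called 0 members, with 8 and 11 members at an unadjusted p under 0.05. The share of all tested genes at that p is given for the main fit only, so the counts of the other fits have no background beside them. DESeq2 called 0.16% of genes as higher and 0.421% as lower. Without a count filter edgeR called 0 members, 0.678% of all genes as higher and 1.11% as lower. With a replicate block it called 0 members, 0.175% of all genes as higher and 0.568% as lower.

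The values of the members nevertheless lay mostly on one side. Of 77, 67 had a log2 fold change above 0, against 47.5% of all tested genes. The median over members was 0.21, with the middle 50% between 0.07 and 0.33 and a full range of -0.21 to 0.51. The median over all tested genes was -0.02, with the middle 50% between -0.26 and 0.18. Both knockouts lay above both controls for 40 members (51.9%), against 21.3% of all tested genes. Both lay below both controls for 2 members (2.60%), against 23.6%. These backgrounds cover genes of all lengths, whereas 43 of the 77 members lay in the 3 shortest deciles of exon length. In those deciles 27.8% to 32.1% of genes had both knockouts above both controls, and 56.3% to 63.0% were above 0. Whether the 2 mice of a group were handled apart is not given, so p-values measure the spread between these libraries, which may be technical. The median SE of a member's log2 fold change was 0.16, against 0.197 over all tested genes; values after ± on the log2 scale are SE throughout.

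**Figure D2:**
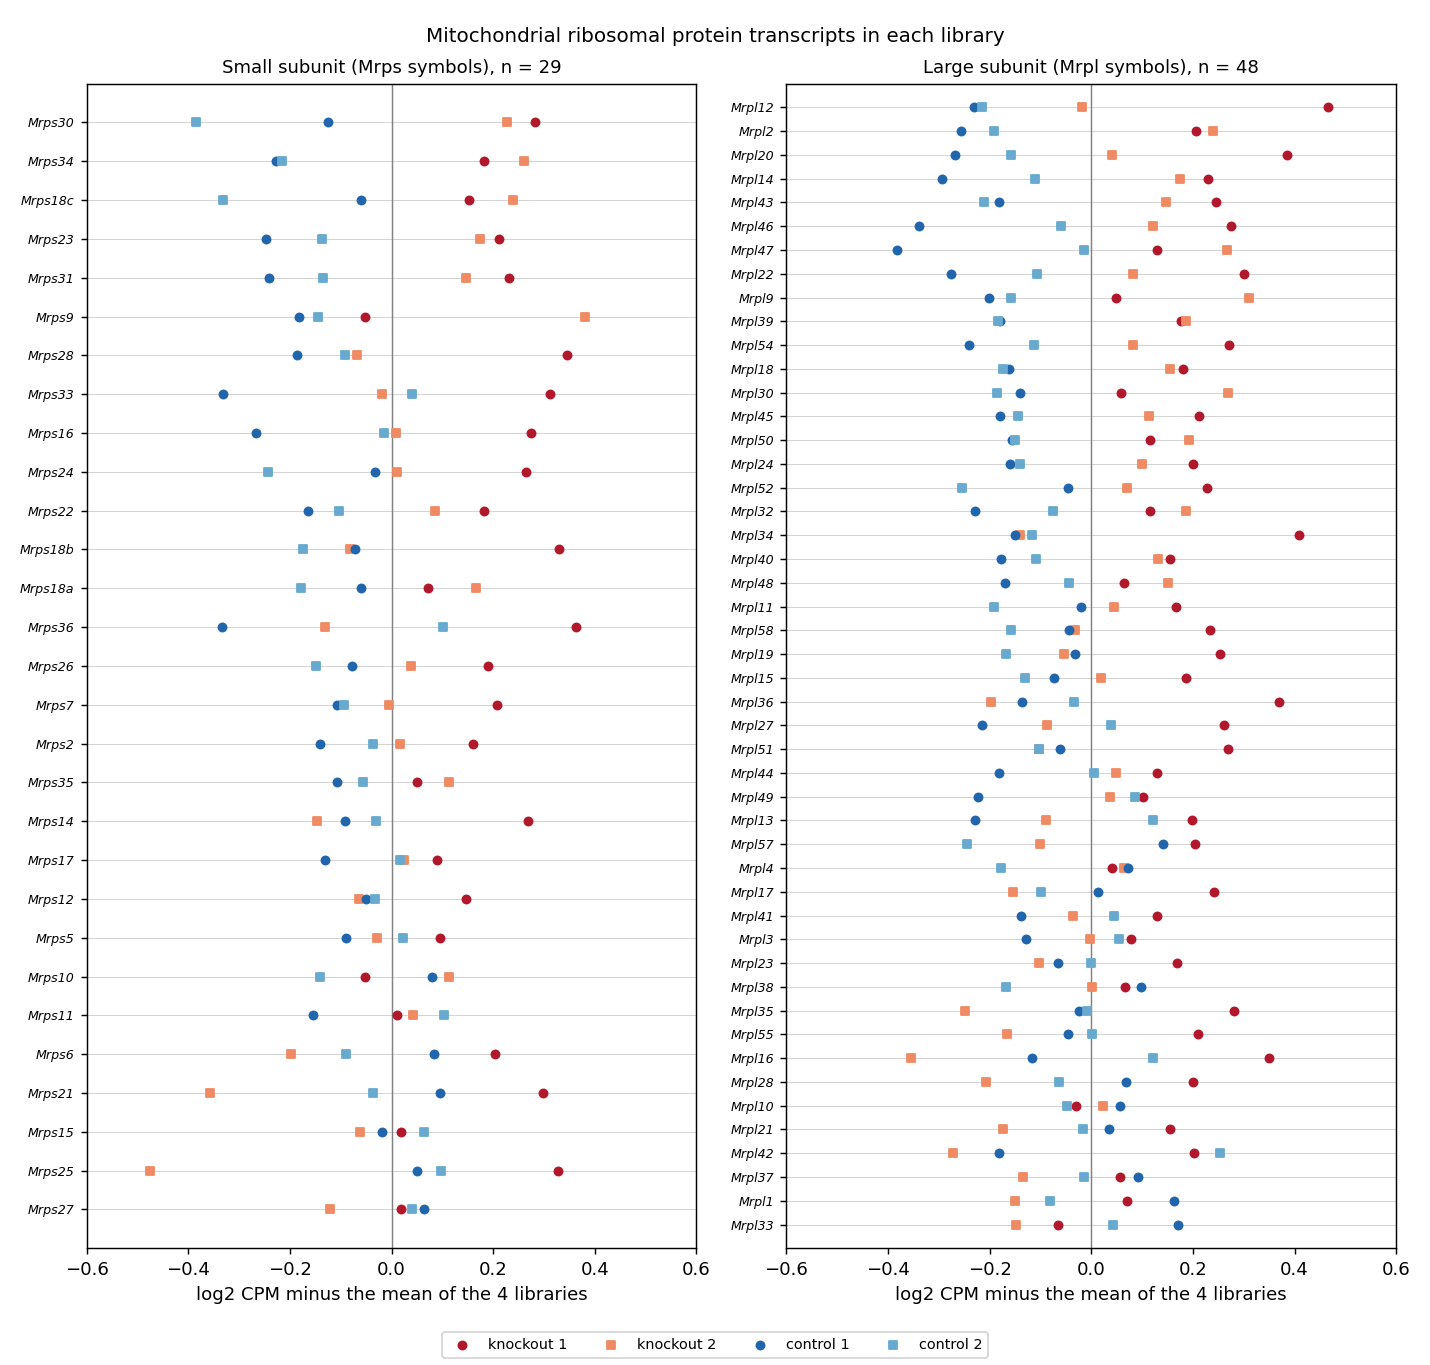
Each row is a member, ordered by log2 fold change within the small subunit (left, n = 29) and the large subunit (right, n = 48); the x axis gives log2 CPM of each library minus the mean of the 4 libraries. Knockout 1 (red circles) is the rightmost library for 53 of the 77 members, knockout 2 (orange squares) varies more in its place, and the controls (blue) lie mostly to the left.

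The libraries did not share the difference equally. The median over members of log2 CPM, less each gene's mean over the 4 libraries, was 0.20 in knockout 1 and 0.02 in knockout 2, against -0.13 in control 1 and -0.09 in control 2. Knockout 1 was the highest library for 53 members, knockout 2 for 14, control 1 for 7 and control 2 for 3. Knockout 1 was the lowest library for 0 members and knockout 2 for 20, as many as control 2, with 37 in control 1. The median difference of knockout 2 minus knockout 1 was -0.15 and that of control 2 minus control 1 was 0.04. Without knockout 1 the median log2 fold change of members was 0.10 and 52 of 77 were above 0; without knockout 2 it was 0.29 and 72 were above 0. Leaving out control 1 or control 2 gave 0.20 and 0.24, with 66 and 64 above 0. The sign turned for 17 of 77 members without knockout 1, 7 without knockout 2, 9 without control 1 and 7 without control 2.

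Among the proteins of the small subunit, Mrps34 (chromosome 17, 24895116 to 24897502), specific to mitochondria, had the smallest p. It measured 52.3 and 55.2 CPM in knockouts, against 39.3 and 39.7 CPM in controls. The groups did not overlap, and the log2 fold change was 0.44 ± 0.12 (SE; edgeR adjusted p = 0.43). Its exons overlap those of Nme3 on the same strand over 763 bases and those of Mapk8ip3 on the opposite strand over 1309 bases. Strand could separate reads of Mapk8ip3 but not those of Nme3, which measured 0 CPM in all 4 libraries. The sources used here do not say whether counting used strand or how shared reads were assigned, so the value of Mrps34 is uncertain.

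Mrps30 (chromosome 13, 118378381 to 118387252), named for the small subunit but placed in the large subunit in structures of the mammalian ribosome, had the largest log2 fold change of the members. It measured 35.1 and 33.8 CPM in knockouts, against 26.4 and 22.0 CPM in controls. Both knockouts lay above both controls, and the log2 fold change was 0.51 ± 0.15 (SE; edgeR adjusted p = 0.43). With 6666 bases of exon it is one of the longer members. It shares 623 exon bases with B430218F22Rik on the opposite strand.

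Mrps23 (chromosome 11, 88204388 to 88211507), another protein without a bacterial homologue, measured 36.9 and 35.9 CPM in knockouts, against 26.8 and 28.96 CPM in controls. Its groups were apart, and the log2 fold change was 0.38 ± 0.13 (SE; edgeR adjusted p = 0.43). Mrps12, the homologue of a bacterial protein at the site where codons are read, measured 23.1 and 19.9 CPM in knockouts, against 20.1 and 20.4 CPM in controls. Knockout 2 was its lowest library and knockout 1 its highest, and the log2 fold change was 0.09 ± 0.16 (SE). Its sign turned without knockout 1 (-0.025) and after removal of the length and GC trend (-0.0060).

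Mrps18a, Mrps18b and Mrps18c are paralogues that descend from a single bacterial gene. Mrps18a measured 26.5 and 28.3 CPM in knockouts, against 24.2 and 22.3 CPM in controls (log2 fold change 0.24 ± 0.14, SE). Mrps18b measured 13.5 and 10.1 CPM in knockouts, against 10.2 and 9.48 CPM in controls (0.26 ± 0.23), and its log2 fold change was 0.04 without knockout 1 and 0.46 without knockout 2. Mrps18c, the member of lowest mean CPM, measured 6.67 and 7.09 CPM in knockouts, against 5.75 and 4.74 CPM in controls (0.40 ± 0.25). All 3 had a value above 0, and the groups of Mrps18b overlapped. Adjusted p for the 3 paralogues ran from 0.56 to 0.68 (edgeR).

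Of the 29 small subunit members, 16 had both knockouts above both controls, 12 overlapped and 1 had both knockouts below. Over all tested genes the shares were 21.3% above and 23.6% below. Mrps6 measured 7.49 and 5.65 CPM in knockouts, against 6.88 and 6.10 CPM in controls, and its log2 fold change of 0.02 ± 0.26 (SE) was well within its error. It shares 159 exon bases with Slc5a3 and 305 with Gm49711 on the same strand, and its sign turned without knockout 1 (-0.20). Mrps36, which is also known as a subunit of the oxoglutarate dehydrogenase complex rather than a ribosomal protein, measured 11.3 and 7.998 CPM in knockouts, against 6.94 and 9.42 CPM in controls. Its groups overlapped, with a log2 fold change of 0.23 ± 0.28 (SE) that was -0.04 without knockout 1. Mrps27, a mitochondrial protein with repeats of the pentatricopeptide kind, measured 27.7 and 25.1 CPM in knockouts, against 28.6 and 28.1 CPM in controls. It was 1 of the 2 members with both knockouts below both controls, at -0.10 ± 0.14 on the log2 scale (SE; edgeR adjusted p = 0.80). Its value was -0.18 without knockout 1 and -0.03 without knockout 2.

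In the large subunit, Mrpl2 (chromosome 17, 46646229 to 46650139), the homologue of a bacterial protein at the core of the subunit, had the smallest p. It measured 41.9 and 42.9 CPM in knockouts, against 30.3 and 31.8 CPM in controls. The replicates of each group were close, the groups did not overlap, and the log2 fold change was 0.45 ± 0.13 (SE; edgeR adjusted p = 0.43). Mrpl43 (chromosome 19, 45004829 to 45006442) measured 47.9 and 44.7 CPM in knockouts, against 35.6 and 34.9 CPM in controls (0.39 ± 0.13). It shares 507 exon bases with Twnk, the gene of the mitochondrial DNA helicase, on the opposite strand. Twnk itself gave -0.11 ± 0.15 (SE).

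Mrpl14 (chromosome 17, 45686322 to 45698495) measured 39.2 and 37.7 CPM in knockouts, against 27.2 and 30.9 CPM in controls, with the groups apart (log2 fold change 0.40 ± 0.14, SE). Mrpl12 (chromosome 11, 120484613 to 120489065), a protein of the ribosomal stalk that is also reported to bind the mitochondrial RNA polymerase, measured 53.7 and 38.4 CPM in knockouts, against 33.1 and 33.5 CPM in controls. Both knockouts were above the controls, but knockout 1 stood far above knockout 2, and the log2 fold change was 0.47 ± 0.18 (SE; edgeR adjusted p = 0.455). Without knockout 1 it was 0.20. Mrpl11, which sits at the base of the stalk, measured 19.3 and 17.7 CPM in knockouts, against 16.9 and 15.04 CPM in controls (0.21 ± 0.17). Mrpl24 measured 121.8 and 113.7 CPM in knockouts, against 94.8 and 96.2 CPM in controls (0.30 ± 0.11).

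Mrpl33 (chromosome 5, 31596935 to 31664384) had the lowest log2 fold change of all members. It measured 13.2 and 12.5 CPM in knockouts, against 15.6 and 14.2 CPM in controls, and both knockouts lay below both controls. The log2 fold change was -0.21 ± 0.18 (SE; edgeR adjusted p = 0.67). Mrpl33, Mrpl14 and Mrpl12 share 261, 106 and 200 exon bases with other genes. Mrps27, Mrps18b, Mrps18c, Mrpl24 and Mrpl9 share 506, 638, 250, 594 and 157. Mrpl27, Mrpl49 and Mrpl51 share 75, 91 and 87. The 3 members with the NRF1 motif all had both knockouts above both controls, as had 21.3% of all tested genes. Their log2 fold changes were 0.37 ± 0.13 for Mrpl9, 0.30 ± 0.15 for Mrpl32 and 0.36 ± 0.14 for Mrpl39. Without knockout 2 Mrpl9 gave 0.23. These 3 were named after their values were seen.

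Both subunits had like medians. Small subunit members had 25 of 29 above 0 and a median log2 fold change of 0.23, and large subunit members had 42 of 48 above 0 and a median of 0.21. With Mrps18a and Mrps30 counted with the large subunit, where structures place them, and Mrps36 left out, the medians were 0.19 (n = 26) and 0.21 (n = 50). The library medians of the small subunit were 0.19 and 0.01 in knockouts, against -0.11 and -0.09 in controls. Those of the large subunit were 0.20 and 0.02 in knockouts, against -0.15 and -0.11 in controls. Members with a homologue in bacterial ribosomes had a median of 0.19 (40 of 46 above 0), and members without one had 0.23 (27 of 31 above 0). The division by homology was made after the values were seen.

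Across the tested genes, log2 fold change was lower in longer genes, and members are short: their median exon length was 2533 bases, against 4180 bases for tested genes. Of the 77 members, 43 lay in the 3 shortest deciles of exon length, 12 in the 3 longest and 0 in the longest decile. Within their own decile, 60 of 77 members lay above the decile's median. In the shortest decile the members' median was 0.29 (n = 19), against 0.12 over all its genes. In the second decile it was 0.23 (n = 18), against 0.10. In the fourth it was 0.21 (n = 9), against 0.04, and in the ninth 0.10 (n = 7), against -0.13. In the shortest decile 10 of 19 members had both knockouts above both controls, against 29.1% of its genes. In the second decile 9 of 18 members did, against 32.1%.

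**Figure D3:**
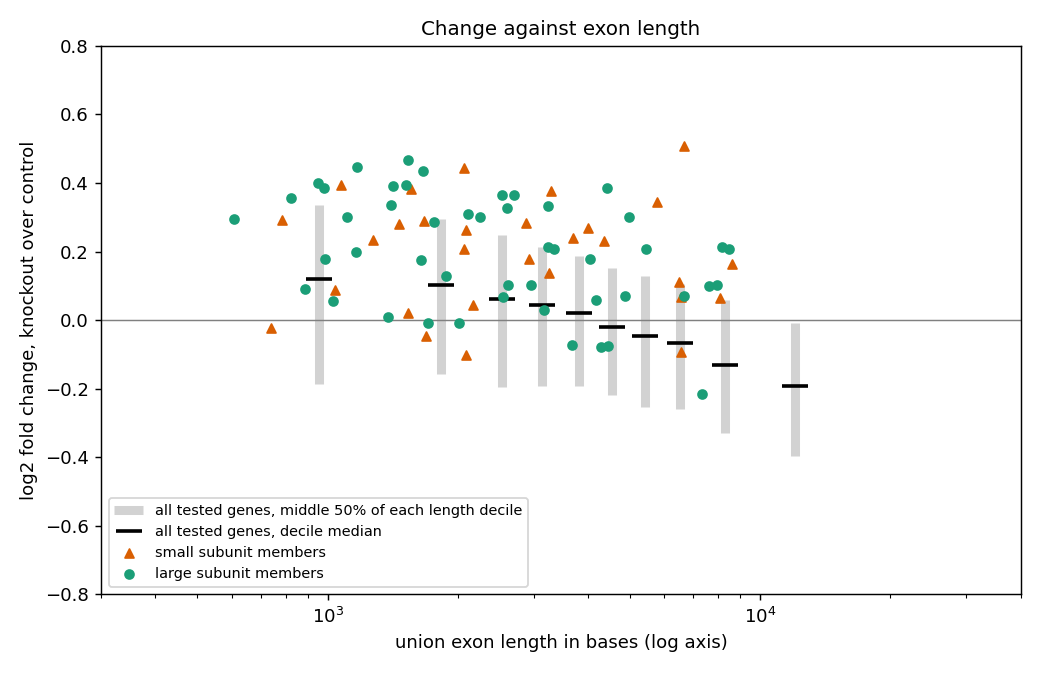
Log2 fold change (y axis, knockout over control) against union exon length in bases (log x axis); black dashes are the medians and grey bars the middle 50% of all tested genes in each length decile, and triangles and circles are small and large subunit members. Decile medians fall from 0.12 to -0.19, and 60 of the 77 members lie above the dash of their own decile.

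The 57 members shorter than the median tested gene had a median log2 fold change of 0.24, with 51 above 0. The 20 longer ones had a median of 0.11, with 16 above 0. Exon length and log2 fold change had a Spearman correlation of -0.26 over the 77 members and of -0.25 over all 14259 tested genes; genes are no independent replicates. With GC content the values were 0.04 and 0.05. All genes share the same 4 libraries, so these values describe this comparison only.

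Level and overlap with other genes were set beside length. Among genes other than members with a mean between 18.1 and 37.0 CPM, the middle 50% of members, the median log2 fold change was 0.16 up to 1500 bases of exon (n = 133) and -0.14 above 6000 bases (n = 785). Members of the same length classes, at any level, had medians of 0.29 (n = 19) and 0.10 (n = 12). The 45 members with no exon shared with another gene had a median of 0.21 (40 above 0), as did the 32 members with shared exons (27 above 0). After removal of a smooth trend on exon length and GC content from each library, the members' median was 0.19, with 60 of 77 above 0, and that of all tested genes was -0.01. No member passed in that fit either.

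Cytosolic ribosomal proteins, which make the other ribosome of the cell and are also short (median 1739 bases), had 81 of 85 above 0 and a median of 0.34. Both knockouts were above both controls for 77 of these 85 genes, against 40 of the 77 mitochondrial members. Over tested genes of all lengths this share was 21.3%. The library medians of the cytosolic proteins were 0.23 and 0.12 in knockouts, against -0.16 and -0.18 in controls. Without knockout 1 the cytosolic median was 0.30 and the mitochondrial median 0.10. After removal of the length and GC trend they were 0.26 and 0.19. Rps14 and Rplp0, the most abundant by mean CPM, gave 0.49 ± 0.13 and 0.29 ± 0.13, and Rpl22l1, of smallest p, 0.51 ± 0.11. The difference between the 2 families was not tested.

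In the lists of other parts of the mitochondrial translation system, 0 genes passed the edgeR threshold, and their shares above 0 are to be read against 47.5% of all tested genes. Mitoribosome proteins with other symbols had 4 of 5 above 0 and a median of 0.20. Dap3, a GTP-binding protein of the small subunit, measured 77.04 and 65.6 CPM in knockouts, against 70.7 and 63.9 CPM in controls (0.08 ± 0.14). Aurkaip1 measured 51.8 and 53.4 CPM in knockouts, against 44.5 and 42.9 CPM in controls (0.27 ± 0.12). Gadd45gip1, a large subunit protein despite its name, gave 0.34 ± 0.16.

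Factors that drive mitochondrial translation had 10 of 15 above 0 and a median of 0.06. Tufm, the elongation factor that brings tRNAs to the ribosome, measured 66.7 and 59.1 CPM in knockouts, against 54.8 and 58.4 CPM in controls (0.15 ± 0.13). Lrpprc, which stabilises mitochondrial mRNAs, gave -0.10 ± 0.16. The initiation factor Mtif3 gave 0.26 ± 0.14 and the GTPase Guf1 -0.25 ± 0.14.

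Assembly and rRNA processing factors had 16 of 28 above 0 and a median of 0.05. Grsf1, an RNA-binding protein of mitochondrial RNA granules, measured 76.3 and 97.8 CPM in knockouts, against 67.04 and 62.9 CPM in controls (0.42 ± 0.15). Dhx30, a helicase needed for mitoribosome assembly, gave -0.12 ± 0.11, and Mterf4, which acts with a methyltransferase on the large subunit, gave 0.35 ± 0.14.

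The mitochondrial aminoacyl-tRNA synthetases, which charge the tRNAs, had 7 of 17 above 0 and a median of -0.0054. Sars2, the seryl enzyme, measured 7.81 and 7.52 CPM in knockouts, against 11.7 and 12.1 CPM in controls (-0.64 ± 0.20), and Vars2 gave -0.48 ± 0.16. Lars2 stood far above the other synthetases in level, at 498 and 556 CPM in knockouts, against 266 and 463 CPM in controls (0.53 ± 0.26). Iars2 gave 0.11 ± 0.11. Regulators of mitochondrial transcription and biogenesis had 6 of 12 above 0 and a median of 0.02. Yy1 and Esrra, transcription factors, gave 0.08 ± 0.13 and 0.20 ± 0.13. Ppargc1a, a coactivator of mitochondrial genes, gave -0.57 ± 0.29, and Gabpb1, a subunit of GABP, -0.35 ± 0.22.

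The mRNAs that these ribosomes translate did not follow the members library by library. All 11 tested mitochondrial mRNAs had a value above 0, with a median of 0.34. Some of them were near the floor: mean levels were 0.47 CPM for mt-Nd3, 0.94 for mt-Atp6, 2.00 for mt-Co3 and 2.45 for mt-Co2. The mean of mt-Co1 was 4865 CPM. The library medians of the 11 mRNAs were -0.25 and 0.51 in knockouts, against -0.22 and -0.06 in controls, so knockout 2 stood high and knockout 1 lay with control 1. In the members knockout 1 was the high library. mt-Co1, a subunit of cytochrome oxidase, measured 3935 and 6837 CPM in knockouts, against 4085 and 4603 CPM in controls (0.31 ± 0.26). mt-Nd1, a subunit of complex I, measured 1165 and 1658 CPM in knockouts, against 1074 and 1163 CPM in controls (0.34 ± 0.19), and mt-Atp6, at 0.64 to 1.63 CPM in all libraries, gave 0.82 ± 0.53. Counts of mitochondrial genes can be shared with nuclear copies of mitochondrial DNA.

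**Figure D4:**
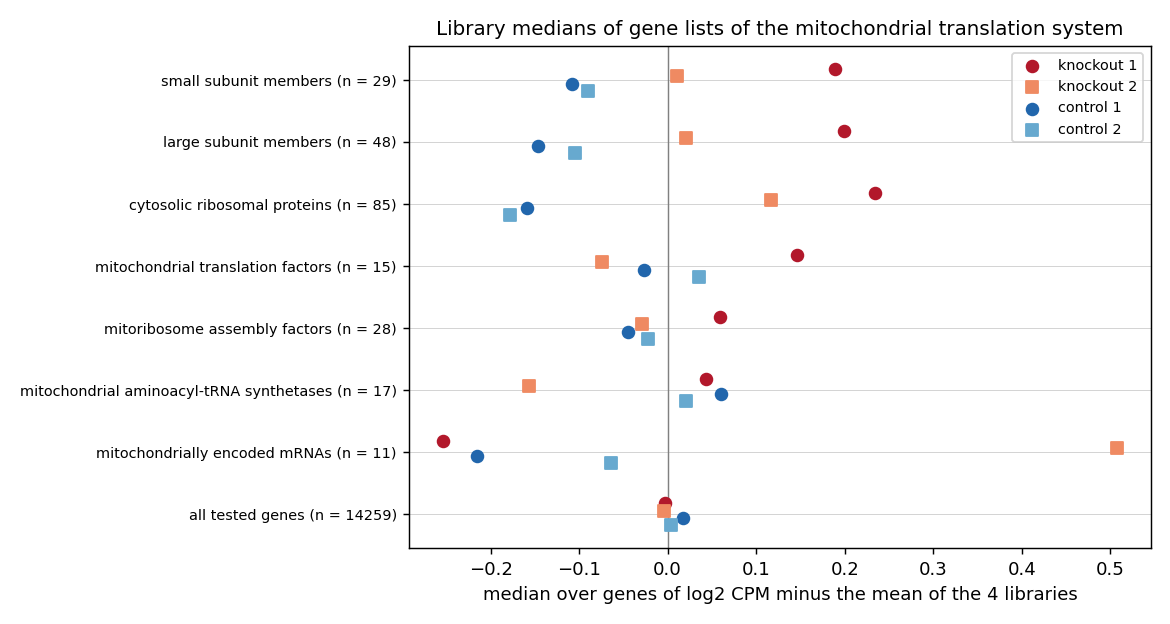
For 7 gene lists and for all tested genes, the x axis gives the median over genes of log2 CPM minus the mean of the 4 libraries, with 1 point per library. Both subunits of the mitochondrial ribosome show knockout 1 at 0.19 to 0.20, knockout 2 near 0 and the controls between -0.15 and -0.09, whereas for mitochondrially encoded mRNAs knockout 2 stands at 0.51 and knockout 1 at -0.25.

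Members whose start faces away from that of another gene, with a gap of at most 1000 bases, were set beside that gene. Pairs whose starts overlap, as for the members Mrpl46 and Mrps11, were not counted. Of 17 divergent pairs with both genes tested, the member was above 0 in 15 and the partner in 9, and the medians were 0.26 for members and 0.0037 for partners. By its GENCODE start, Mrpl51 lies 100 bases from Ncapd2, a condensin subunit of mitotic chromosomes. Mrpl51 measured 45.5 and 35.1 CPM in knockouts, against 36.2 and 35.1 CPM in controls (0.18 ± 0.16), and its value was -0.024 without knockout 1. Ncapd2 measured 18.3 and 16.6 CPM in knockouts, against 27.4 and 22.9 CPM in controls (-0.52 ± 0.17). Mrps12 starts 172 bases from Sars2, whose values are given among the synthetases and lay below 0. Mrpl49 starts 59 bases from Fau, the gene of a cytosolic ribosomal protein fused to a ubiquitin-like protein, and gave 0.13 ± 0.16 beside 0.34 ± 0.12 for Fau; without control 1 Mrpl49 gave -0.016. No partner passed the threshold.

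A further gene, Mrpl53 (chromosome 6, 83109040 to 83109939), matched the symbol rule but had 0 counts in all 4 libraries and is no member. Of its 790 exon bases, 695 are also exons of Gm42688 on the same strand, so its reads cannot be told from those of that gene, which measured 0.965 and 1.68 CPM in knockouts, against 0.658 and 1.83 CPM in controls. The members with the fewest counts were well inside the limit of 10: Mrps18c had 145 and 148 counts in knockouts, against 96 and 140 counts in controls. Processed pseudogenes of the family held at most 7 counts in a library.

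Marker genes of other cells also differed between the libraries. None of the tested markers passed the edgeR threshold. All 3 proliferation markers had a log2 fold change below 0 and both knockouts below both controls, as had 23.6% of all tested genes. The summed proliferation level was 23.4 and 16.9 CPM in knockouts, against 45.4 and 33.1 CPM in controls. It was lower in the library numbered 2 of each group. All 5 interfollicular differentiation markers and all 5 sebaceous markers were below 0 too, with the groups of each overlapping. The summed sebaceous level was 352 and 239 CPM in knockouts, against 557 and 256 CPM in controls, again lower in the library numbered 2 of each group. Of the tested markers, 2 of 4 fibroblast, 3 of 3 immune and 1 of 3 melanocyte genes were above 0. The fibroblast marker Col1a1 measured 89.5 and 75.3 CPM in knockouts, against 117 and 148 CPM in controls (-0.69 ± 0.16), with the groups apart. The 5 blood endothelial markers summed to 3.95 and 14.8 CPM in knockouts, against 8.38 and 4.20 CPM in controls, and only Tek and Pecam1 passed the filter on low counts. Tek measured 3.17 and 10.6 CPM in knockouts, against 2.69 and 2.07 CPM in controls (1.54 ± 0.58). Pecam1 measured 0.41 and 2.87 CPM in knockouts, against 3.77 and 1.39 CPM in controls (-0.62 ± 0.88). Cdh5 measured 0.14 CPM in each knockout, against 1.38 and 0.30 CPM in controls. Tek and Cdh5 thus lay on opposite sides, with the groups of both apart. The part of these cells in the members' values was not tested.

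**Figure D5:**
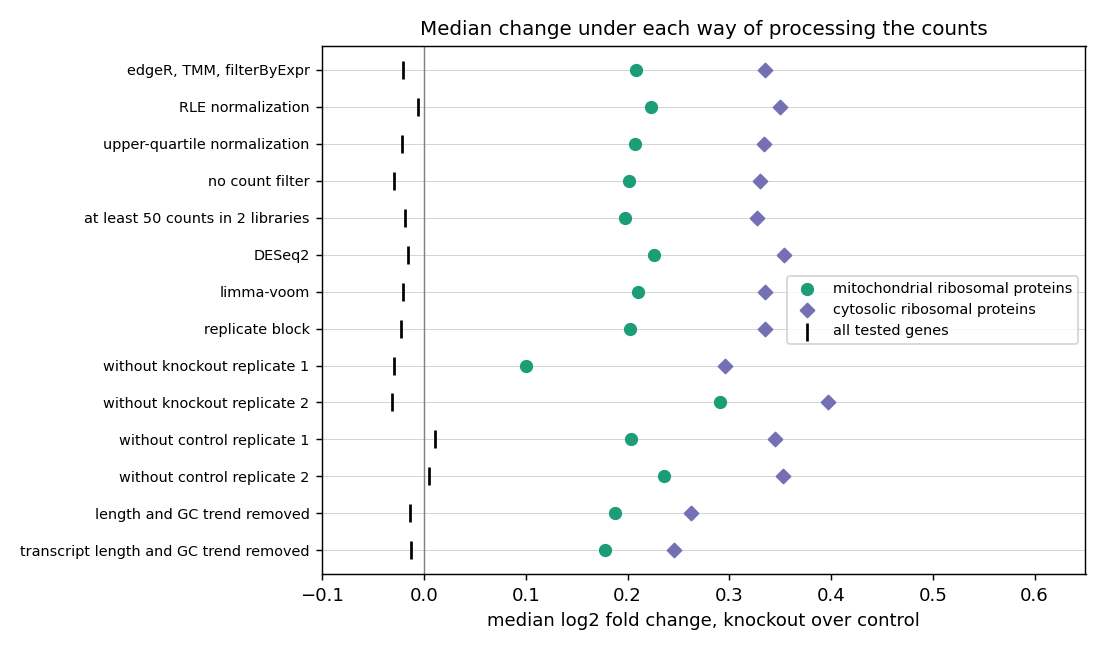
Median log2 fold change (x axis, knockout over control) of mitochondrial ribosomal proteins (green circles), cytosolic ribosomal proteins (purple diamonds) and all tested genes (black bars) under each way of processing the counts. The mitochondrial median lies between 0.10, without knockout 1, and 0.29, without knockout 2, and above the median of all tested genes in each row.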

How the data were processed

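RNA was extracted with TRIzol and polyA-selected directional libraries were made, per the labels' protocols. The authors deposited raw counts per gene for 2 knockout and 2 control libraries. Trim Galore 0.6.0, cutadapt, FastQC, STAR 2.7.0e, DESeq2 1.26.0 and the build GRCm38 (mm10) are named in the submitters' processing notes. The counter used, the annotation release and whether strand was used were not given in these sources. Library totals were 16326906 to 29130974 counts.

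All genes kept by filterByExpr were fitted together with edgeR 4.0.16 (R 4.3.3; TMM scaling, robust quasi-likelihood test, Benjamini-Hochberg adjustment over 14259 genes, threshold 0.05), which was tested on simulated data. SE was derived from the log2 fold change and its F statistic. CPM used effective library sizes, and log2 CPM a prior count of 2. DESeq2 1.42.0, limma 3.58.1, other scalings and filters, a replicate block, trends on length and GC content, and leaving out each library were tried. The trend on transcript length and the members without shared exons were alternatives chosen after seeing the data. Exon lengths came from GENCODE M21 and promoters from RefSeq.

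Named members were the 5 highest and 3 lowest per kb, the 6 of smallest p per direction whose groups do not overlap, 8 set by role, and those nearest the count limit; of other lists, the 2 most abundant genes and the 2 of smallest p. Mrpl9, Mrpl32, Mrpl39, Mrpl49 and Mrpl51 were added after their values were seen. The members and lists were chosen with earlier results of these data known.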

Additional observations from a re-analysis of the deposited data

How the results depend on the processing

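No member passed the adjusted threshold under any alternative run; the lowest adjusted p over members ran from 0.10 (Mrpl9, without knockout 1) to 0.98 (without control 1). The median log2 fold change of members was 0.21, 0.10 to 0.29 when a library was left out (0.10 without knockout 1), 0.18 to 0.19 with length and GC trends removed, 0.23 with DESeq2 and 0.20 with a replicate block. The members above 0 were 67, and 52 to 72 when a library was left out. Over all genes the calls were 1 higher and 0 lower, against 163 and 267 without a count filter, 22 and 58 with DESeq2 and 25 and 81 with the replicate block. Leaving out a library gave 1 to 39 higher and 0 to 26 lower, the most without knockout 1. Replicate numbers 1 and 2 occur in both groups, but no label says that they pair mice; same-numbered deviations correlated at 0.122 over 14259 genes, with only 2 pairs. Over all 77 members the sign turned for 29 when at least 1 library was left out, 21 of them to below 0, and for 7 and 9 with the exon and transcript length trends removed. Of the 26 members followed one by one, 8 turned when a library was left out: Mrpl49 ran from -0.016 (without control 1) to 0.32, Mrpl51 from -0.024 (without knockout 1) to 0.35, Mrpl27 ran from -0.0091 (without knockout 1) to 0.34, Mrps10 from -0.023 (without control 2; -0.021 without knockout 2) to 0.18, Mrps12 from -0.025 (without knockout 1) to 0.19, Mrps36 from -0.041 (without knockout 1) to 0.50, Mrps6 from -0.20 (without knockout 1; -0.043 without control 2) to 0.21, and Mrps21 from -0.39 to 0.27 (without knockout 2; 0.045 without control 1). With the exon length and GC trend removed, Mrps12 gave -0.0060 and Mrps6 -0.067; with transcript length, -0.021 and -0.085. The cause was not tested. The other 323 values of these 26 members under alternatives kept their direction and side of the threshold. The biological coefficient of variation of 19.2% over all genes and a median SE of 0.16 limit what 2 libraries a group show for a single member.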
